A study of Mus musculus with 3 samples.

Results

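The first day of factor-induced reprogramming was examined by setting the 3 untransfected libraries of day 1 (Day01) against the 3 of day 0 (Day00). These 6 libraries were chosen by the names of their columns in the count table, out of 129 libraries with counts, of which the authors kept 127. All of them came from primary wild-type mouse embryonic fibroblasts (MEFs) of the BL6 strain at passage 2, and all had been transduced with a doxycycline-inducible lentiviral cassette carrying Oct4, Sox2, Klf4 and c-Myc (OSKM) and with a second lentivirus that encodes the rtTA activator. Day 0 cells had not yet received doxycycline. Day 1 cells had been re-plated on gelatin and grown for a day in reprogramming medium, which held serum, doxycycline at 2 ug/mL, the GSK3 inhibitor chiron at 3 uM, the TGF-beta receptor inhibitor Alk5i at 0.25 uM, ascorbic acid at 50 ug/mL and LIF. Induction of the factors, the change of medium and the re-plating came together between the days, so that their effects cannot be told apart. RNA was read in bulk by CEL-Seq2, which tags the 3′ end of each polyadenylated transcript with a unique molecular identifier (UMI), and the 3 replicates were sequenced as 3 pools. The study calls its sequencing replicates independent, but whether the pools held separate cell preparations is not given in the sources used here, so that the p-values measure the spread between these libraries, which may be technical. In bulk RNA, fewer cells of a type and less RNA per cell cannot be told apart.

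A fibroblast is a connective tissue cell that secretes collagen and other matrix proteins and pulls on that matrix with actin and myosin fibres. TGF-beta signalling and serum response factor maintain this programme in culture. Reprogramming by OSKM asks a fibroblast to give up that identity, to divide rapidly and to take on epithelial features before the pluripotency genes of embryonic stem cells become active. Myc, one of the 4 factors, is a general driver of ribosome production and of entry into the cell cycle.

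Total UMI counts ran from 47210 to 130101 in the day 0 libraries and from 38784 to 78657 in the day 1 libraries, which is shallow. A gene with no count in a library could still have stood at up to 24.8 CPM in the deepest library or 68.8 CPM in the shallowest, where CPM is the count of a gene per 1000000 counts of the tested genes, after TMM scaling between libraries. Intervals and such limits cover counting error only. A chi-square test of counts between replicates of a day gave 1.41 to 1.87 per gene, above the sampling noise, so that no library was taken for a copy of another. The share of counts on mitochondrially encoded genes was 13.8 to 15.7% on day 0 and 10.8 to 12.5% on day 1. Of 50507 genes in the table, 15081 had a count in the 6 libraries and 3013 passed the filter on low counts and were tested.

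Between day 0 and day 1, 298 of the 3013 genes (9.89%) passed an edgeR quasi-likelihood test at an adjusted p under 0.05. Of these, 93 were higher on day 1 (3.09% of the genes tested) and 205 were lower (6.80%). The lowered genes had a median log2 fold change of -1.44, with 156 changed more than 2-fold and 51 more than 4-fold, and the raised genes had a median of 1.38, with 71 past 2-fold and 20 past 4-fold. Over all genes tested the median was -0.01, with 1530 below 0 and 1483 above. The share of raised genes among the calls was 31.2%. It was 41.6% when only the time course libraries were fitted (139 raised and 195 lowered). With limma on the deposited log2 values, which tested 10568 genes, it was 64.4% (154 raised and 85 lowered). Of these 239 genes, 113 were among the main calls. Fitted without the replicate as a block, 196 genes passed. Without replicate 3, which holds the deepest day 0 library, 117 passed, and all 298 genes kept their direction there.

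The 12 largest decreases among genes with a mean of at least 50 CPM on 1 of the days and the same direction in each replicate were Aspn, Prss35, Flrt2, Wbscr17, Fam114a1, Igfbp5, Cxcl12, Spp1, Postn, Ccl2, Ptn and Pkd2, and in each of these the 3 day 1 values lay below the 3 day 0 values. Flrt2 (chr12:95692226-95785215 on GRCm38), a transmembrane protein with leucine-rich repeats, stood at 1806, 1143 and 1688 CPM in replicates 1, 2 and 3 of day 0 and at 68.8, 85.5 and 79.7 CPM in those of day 1. It was far lower on day 1 in all replicates, with a log2 fold change of -4.22 (SE 0.32, adjusted p = 1.57e-26).

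Spp1 (chr5:104435118-104441050), which encodes osteopontin, a secreted phosphoprotein of bone and of activated fibroblasts, stood at 1765, 847 and 1697 CPM on day 0 and at 160.5, 109.9 and 114 CPM on day 1 (log2 fold change -3.56, SE 0.30, adjusted p = 1.27e-22). Postn (chr3:54361109-54391037), or periostin, a matrix protein induced by TGF-beta, went from 493, 593 and 488 CPM to 45.8, 61.1 and 22.8 CPM (-3.56, SE 0.56, adjusted p = 1.48e-07). Both genes fell in each replicate. Ptn (chr6:36714929-36810220), the heparin-binding growth factor pleiotrophin, went from 575, 572 and 497 CPM to 45.8, 61.1 and 56.9 CPM (-3.23, SE 0.44, adjusted p = 8.43e-10). Igfbp5 (chr1:72857932-72874884), a secreted binding protein of insulin-like growth factors, went from 267, 254 and 414 CPM to 22.9, 36.6 and 11.4 CPM (-3.68, SE 0.67, adjusted p = 1e-05).

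Aspn (chr13:49544443-49567565), or asporin, a small leucine-rich proteoglycan that binds TGF-beta, stood at 493, 191 and 430.4 CPM on day 0 and had no count in any day 1 library. Its 85 counts on day 0 against none make it at least 27.9-fold lower, taking 3 counts over the day 1 libraries as the limit (adjusted p = 9.53e-09, and 0.498 by DESeq2). Aspn overlaps exons of Cenpp on the opposite strand. Prss35 (chr9:86743649-86758443), a serine protease-like protein, went from 493, 191 and 646 CPM to 22.9, 0 and 22.8 CPM, a ratio of counts of 36.4 with a counting interval of 12.1 to 179 (adjusted p = 2.17e-08). The remaining low-count members were Fam114a1, with a ratio of 16.7 (interval 4.29 to 144, adjusted p = 0.000567), and Wbscr17, with a ratio of 23.6 (3.85 to 971, adjusted p = 0.00313). Wbscr17 did not pass without replicate 1 (adjusted p = 0.071), without replicate 3 (0.062) or by DESeq2 (0.439). Pkd2 (chr5:104459450-104505819), the calcium channel polycystin-2, stood at 246, 148 and 339 CPM on day 0 and at 22.9, 36.6 and 34.2 CPM on day 1 (log2 fold change -2.92, SE 0.60, adjusted p = 0.000111). It did not pass without replicate 3 (0.068) or by limma on the deposited log2 values (0.072), and it shares stretches with 4 other annotated genes.

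By the same rule the 12 largest increases were Sprr2b, Slc7a11, Gm13212, Nudt19, Rbm8a, Inhbb, Gm6063, Lgals3, Dusp14, Nefl, Gm5812 and Epb41l4aos, again with no overlap between the days. Sprr2b (chr3:92316620-92318085), a small proline-rich protein of the cornified envelope of skin, had no count on day 0 and stood at 229, 159 and 79.7 CPM on day 1, at least 10.2-fold higher (adjusted p = 1.91e-05). Slc7a11 (chr3:49892526-50443614), the cystine transporter whose cystine feeds glutathione synthesis, likewise had no count on day 0 and stood at 115, 147 and 91.1 CPM on day 1, at least 8.47-fold higher (adjusted p = 1.53e-05). Slc7a11 shares near-identical stretches with 6 other annotated genes.

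Inhbb (chr1:119415465-119422248), which encodes the beta B subunit of activin and inhibin, ligands of the TGF-beta family, stood at 20.5, 21.2 and 33.1 CPM on day 0 and at 183, 183 and 216 CPM on day 1 (log2 fold change 2.72, SE 0.52, adjusted p = 3.14e-05). Lgals3 (chr14:47367751-47386160), the galactose-binding lectin galectin-3, went from 103, 42.3 and 49.7 CPM to 389.7, 489 and 262 CPM (2.55, SE 0.39, adjusted p = 7.74e-08). Both were several-fold higher in every replicate. Dusp14 (chr11:84048041-84069261), a dual-specificity phosphatase of MAP kinases, went from 20.5, 63.5 and 24.8 CPM to 252, 171 and 182 CPM (2.49, SE 0.56, adjusted p = 0.000453, and 0.057 without replicate 3). Rbm8a, a core protein of the exon junction complex, went from 0, 21.2 and 16.6 CPM to 138, 122 and 91.1 CPM, a ratio of counts of 8.13 (interval 2.47 to 42.2, adjusted p = 0.00238), and its sequence is shared in part with Rbm8a2.

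The other 6 raised genes rested on few counts or on sequences with copies. Nudt19, a peroxisomal coenzyme A hydrolase, stood at 0, 0 and 16.6 CPM on day 0 and at 183, 73.3 and 45.5 CPM on day 1 (adjusted p = 0.00963, and 0.161 without replicate 1). Gm5812 and Gm6063 are processed pseudogenes, the first a near copy of Fbl, which encodes the nucleolar protein fibrillarin, and the second with 11 near copies. They passed at adjusted p values of 0.00845 and 0.011, but not without replicate 3 (0.116 and 0.239). Gm13212, a near copy of the zinc finger gene Zfp984, had 1 count on day 0 and 12 on day 1 (ratio 12.2, interval 1.80 to 521, adjusted p = 0.0245) and did not pass without any 1 replicate (0.0987 to 0.11). Nefl, a neurofilament subunit, and the noncoding RNA Epb41l4aos passed at 0.0303 and 0.031, but not without replicate 3 (0.571 and 0.444).

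**Figure D1:**
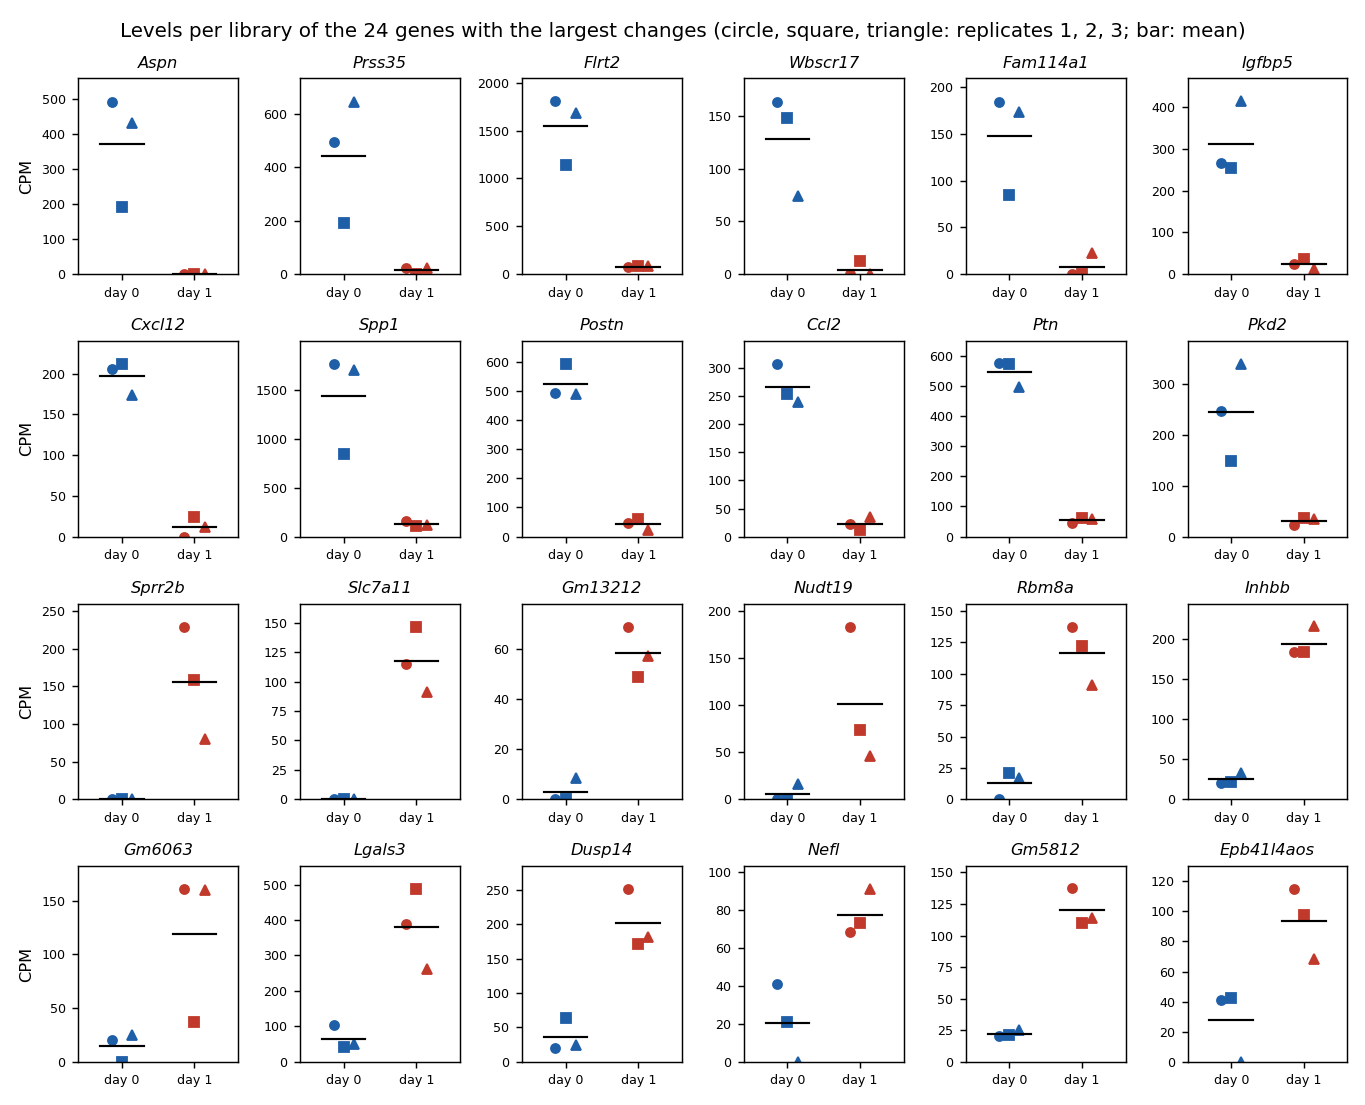
Level in CPM of each of the 24 genes of largest change on day 0 (blue) and day 1 (red), with a circle, a square and a triangle for replicates 1, 2 and 3 and a bar at the mean. Each panel has its own axis from 0, and the days do not overlap in any of the 24 genes, which were chosen for their change.

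Of 17 collagen genes listed 9 were tested, and 7 of the 9 were lowered (6.80% over all genes) and none raised, with a median log2 fold change of -1.71 against -0.01 over all genes. Col1a2, a chain of the main fibrillar collagen, stood at 2135, 2583 and 2350.5 CPM on day 0 and at 642, 696 and 569 CPM on day 1 (-1.88, SE 0.20, adjusted p = 7.84e-15), with the days far apart in every replicate. Its partner chain Col1a1 was lowered less, from 821, 1927 and 1233 CPM to 573, 709 and 774 CPM (-0.90, SE 0.22, adjusted p = 0.00112, and 0.162 without replicate 2). Col3a1 (-2.32), Col5a2 (-2.28), Col8a1 (-2.50), Col12a1 (-1.71) and the basement membrane chain Col4a1 (-1.23) completed the lowered members. Without replicate 3 the adjusted p was 0.335 for Col3a1, 0.0686 for Col8a1 and 0.0817 for Col4a1, so that 4 of the 7 passed. By limma on the deposited log2 values 1 of the collagens passed. Exons of Col4a2 lie on the strand opposite to Col4a1.

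The enzymes that fold and cross-link collagen were lowered too, with 4 of 6 tested (of 20 listed) and a median of -1.24. Lox, the lysyl oxidase that cross-links collagen and elastin, went from 1108, 1525 and 1092 CPM to 229, 219.9 and 137 CPM (-2.68, SE 0.36, adjusted p = 5.85e-10). Loxl1 (-1.83), the lysyl hydroxylase Plod2 (-1.36) and Serpinh1 (-1.09), the collagen chaperone HSP47, did not pass without replicate 3 (adjusted p = 0.222, 0.4 and 0.362). Among other matrix proteins 10 of 20 tested were lowered and 1 was raised, with a median of -1.20. Sparc, a matrix glycoprotein that binds collagen, went from 3448, 3239.7 and 3095 CPM to 1146, 1368 and 1389 CPM (-1.29, SE 0.17, adjusted p = 3.5e-10). Bgn, the proteoglycan biglycan (-2.15, adjusted p = 6.62e-12), and Thbs1, the adhesive glycoprotein thrombospondin 1 (-1.44, adjusted p = 1.95e-11), were lowered in the same range. Fibronectin, Fn1 (-1.55, adjusted p = 0.013), did not pass without replicate 2 (0.138) or 3 (0.197), and it shares stretches with 86 other annotated genes. By limma on the deposited log2 values 7 of these matrix proteins were lowered, but not Thbs1 (adjusted p = 0.118) or Fn1 (0.423).

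The exception was Nid1, the basement membrane linker nidogen 1, which rose from 164, 127 and 174 CPM to 367, 329.8 and 387 CPM (1.18, SE 0.34, adjusted p = 0.0116). Its days did not overlap, but it did not pass without replicate 2 (0.0863) or 3 (0.116) or by limma on the deposited log2 values (0.108). Of 7 tested matrix proteases and inhibitors, the inhibitors Timp2 (-0.96, adjusted p = 0.000233) and Timp3 (-0.79, adjusted p = 0.0168) were lowered, and neither passed without replicate 3 (0.0536 and 0.611).

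**Figure D2:**
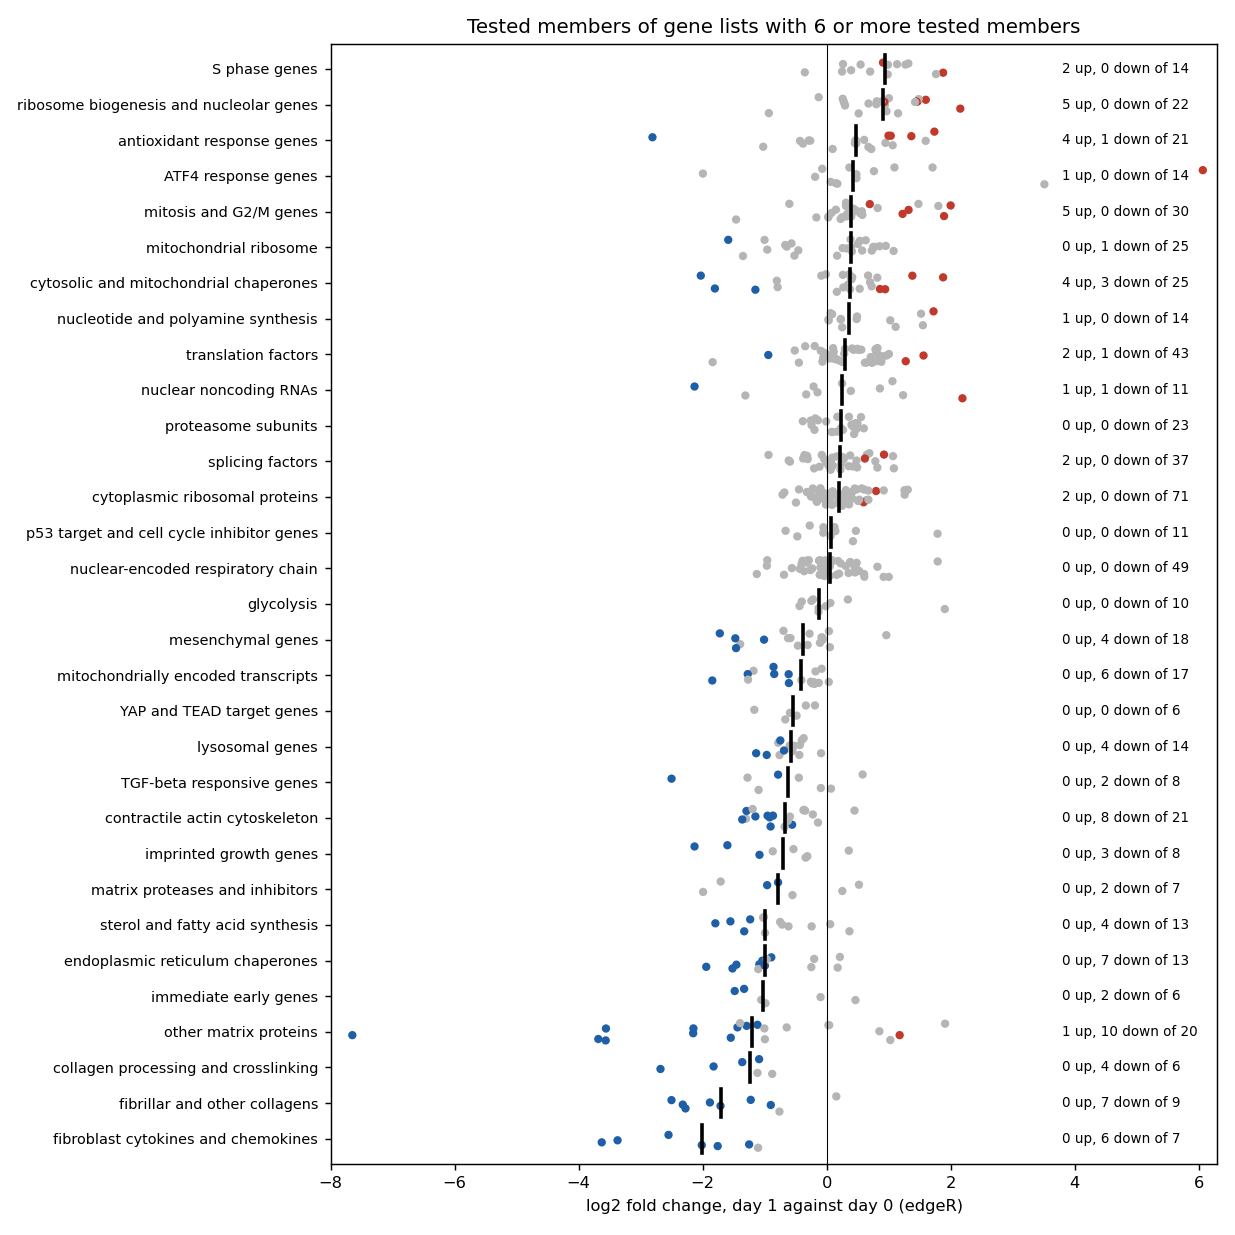
Log2 fold changes of the tested members of each gene list with at least 6 of them, with a point per gene (red raised, blue lowered, grey not passing), the list median as a bar, and the number raised, lowered and tested at the right. Collagens, cytokines and endoplasmic reticulum chaperones sit to the left of 0, with medians of -1.71, -2.02 and -0.997, and S phase and nucleolar genes to the right, with medians of 0.94 and 0.91.

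Of 21 tested contractile genes (26 listed) 8 were lowered and none raised, 20 had a log2 fold change below 0, and the median was -0.68. Cald1, or caldesmon, which binds actin and tropomyosin, went from 4783, 4023 and 4461 CPM to 1994, 1674 and 1514 CPM (-1.36, SE 0.16, adjusted p = 1.62e-12). Acta2, the smooth muscle actin of myofibroblasts, went from 3284, 3938 and 4916 CPM to 1948, 2468 and 1890.2 CPM (-0.95, SE 0.18, adjusted p = 2.9e-05). The days were apart for both, and the difference in Acta2 was largest in replicate 3, without which its adjusted p was 0.0741. Myosin light chains Myl9 (-1.29) and Myl6 (-0.92), alpha-actinin Actn1 (-1.15), tropomyosin Tpm1 (-0.91), Tes (-0.87) and Actb (-0.56) were also lowered. Without replicate 3 only Cald1 and Actn1 passed, and without replicate 2 the count was 5. By limma on the deposited log2 values 0 of the contractile genes passed. Actb has 7 near copies elsewhere in the genome.

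Alk5i blocks the TGF-beta receptor kinase, and 2 of 8 tested genes that respond to TGF-beta (22 listed) were lowered, with a median of -0.62. Pmepa1, a membrane protein that feeds back on TGF-beta signalling, went from 513, 296 and 455 CPM to 68.8, 85.5 and 56.9 CPM (-2.50, SE 0.50, adjusted p = 6.71e-05), and Timp3 was the other. None of the 6 tested targets of YAP and TEAD, the transcription factors that read cell tension, passed, although all 6 log2 fold changes were below 0 (median -0.54). Of 18 tested mesenchymal genes 4 were lowered and none raised (median -0.39). Cdh11, the cadherin of mesenchymal cells, went from 493, 508 and 406 CPM to 138, 147 and 125 CPM (-1.72, SE 0.34, adjusted p = 4.11e-05). Twist2, a repressor that holds the mesenchymal state (-1.47, adjusted p = 0.000145), the integrin Itgb1 (-1.01, adjusted p = 0.000397) and S100a4 (-1.46, adjusted p = 8.8e-06) were the others, and the days overlapped for S100a4, which did not pass without replicate 3 (0.0791). By limma on the deposited log2 values none of the 4 passed (adjusted p = 0.0504 to 0.183).

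Several fibroblast genes showed no change that passed. Vim, the intermediate filament vimentin, was at 1672 ± 148 CPM (SD, n = 3) on day 0 and 1565 ± 214 CPM on day 1 (adjusted p = 0.767). Thy1, the surface antigen of fibroblasts, was at 304 ± 83 and 296 ± 149 CPM (adjusted p = 0.922). For Prrx1, a mesenchymal homeobox gene, the levels were 739.9 ± 73.3 and 582 ± 119 CPM (adjusted p = 0.508).

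Of the 39 lists, that of secreted signals of fibroblasts had the lowest median. Of 7 tested (25 listed), 6 were lowered and none raised, with a median log2 fold change of -2.02. The chemokine Ccl2 (chr11:82035571-82037453), which recruits monocytes, went from 308, 254 and 240.0 CPM to 22.9, 12.2 and 34.2 CPM (-3.37, SE 0.68, adjusted p = 8.68e-05). Its neighbour Ccl7 went from 616, 656 and 1589 CPM to 183, 109.9 and 216 CPM (-2.55, SE 0.28, adjusted p = 2.22e-14). All day 1 values of both lay under the lowest day 0 value. The neutrophil chemokine Cxcl5 went from 903, 953 and 1134 CPM to 252, 147 and 353 CPM (-2.02, SE 0.28, adjusted p = 1.33e-09), and Cxcl12 (chr6:117168535-117181367), which holds stem and immune cells in their niche, from 205, 212 and 174 CPM to 0, 24.4 and 11.4 CPM, a ratio of counts of 13.4 (interval 4.29 to 67.9, adjusted p = 0.000175). Grem1, a secreted antagonist of bone morphogenetic proteins (-1.76, adjusted p = 8.24e-09), and the interleukin 33 receptor Il1rl1 (-1.25) were the other 2, and Il1rl1 did not pass without replicate 3 (adjusted p = 0.219).

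Chaperones of the endoplasmic reticulum (ER), where secreted proteins fold, were lowered in 7 of 13 cases, while chaperones of the mitochondrion and cytosol went both ways. When unfolded protein accumulates in the ER, the transcription factors ATF6 and XBP1 raise ER chaperone genes through a promoter element with an NF-Y site at one end. That element, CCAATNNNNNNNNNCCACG read on both strands, was looked for in RefSeq promoters of 300 bases (GRCm38.p6). It was in 37 of 27025 promoters (0.137%), in 7 of the 1921 tested genes with a promoter entry (0.364%), in none of 58 raised genes with an entry and in 4 of 143 lowered ones (2.8%), namely Hspa5, Calr, Hsp90b1 and Pdia6. All 4 are in the list of ER chaperones, of which 8 of the 20 with a promoter entry hold the element (40%), so that the share among lowered genes restates the count of that list. The 250 bases before the start of these 4 are printed, in capitals the element, since they are the lowered genes that share it. They lie at chr2:34771840-34772089 on the plus strand (Hspa5), chr8:84846932-84847181 on the minus strand (Calr), chr10:86705445-86705694 on the minus strand (Hsp90b1) and chr12:17266339-17266588 on the plus strand (Pdia6). The sequences read 5′ to 3′ towards the start:
Hspa5: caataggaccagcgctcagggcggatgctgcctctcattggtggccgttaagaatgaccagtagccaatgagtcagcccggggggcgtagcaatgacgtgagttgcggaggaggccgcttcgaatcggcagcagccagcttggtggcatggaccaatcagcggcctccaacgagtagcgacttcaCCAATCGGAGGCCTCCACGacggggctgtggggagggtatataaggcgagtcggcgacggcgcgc
Calr: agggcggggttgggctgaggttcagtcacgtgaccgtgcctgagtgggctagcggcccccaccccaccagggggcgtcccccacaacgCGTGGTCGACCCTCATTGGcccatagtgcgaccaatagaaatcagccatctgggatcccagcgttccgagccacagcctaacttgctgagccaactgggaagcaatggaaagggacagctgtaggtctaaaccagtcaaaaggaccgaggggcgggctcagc
Hsp90b1: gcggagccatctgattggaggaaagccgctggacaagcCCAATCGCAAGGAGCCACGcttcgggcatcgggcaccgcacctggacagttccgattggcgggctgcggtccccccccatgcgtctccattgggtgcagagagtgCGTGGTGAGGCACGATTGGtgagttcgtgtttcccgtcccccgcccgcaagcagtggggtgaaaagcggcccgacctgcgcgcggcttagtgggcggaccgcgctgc
Pdia6: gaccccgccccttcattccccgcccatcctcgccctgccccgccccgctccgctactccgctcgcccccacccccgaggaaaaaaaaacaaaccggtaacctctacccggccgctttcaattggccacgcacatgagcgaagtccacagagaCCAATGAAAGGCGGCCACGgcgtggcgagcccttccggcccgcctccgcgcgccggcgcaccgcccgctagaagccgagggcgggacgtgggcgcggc

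The element began 65 bases before the start in Hspa5, 162 in Calr, 98 in Pdia6, and 212 and 107 in Hsp90b1, which held it once on each strand. Such a match is a description of the sequence and not a binding site shown to be used.

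Of 13 tested ER chaperone genes (24 listed), 7 were lowered and none raised, with a median log2 fold change of -0.997. Hspa5, or BiP, the main ER chaperone of the HSP70 family, went from 1252, 1143 and 977 CPM to 688, 635 and 409.9 CPM (-0.997, SE 0.20, adjusted p = 8.18e-05). Hsp90b1, or GRP94, went from 1683, 1249 and 1556 CPM to 802, 672 and 945 CPM (-0.89, SE 0.19, adjusted p = 0.000182). Both were lower in each replicate and passed without any 1 of them, but not by limma on the deposited log2 values (adjusted p = 0.193 and 0.226), which left 1 ER chaperone gene lowered. Calr, the calcium-binding lectin calreticulin, went from 903, 593 and 977 CPM to 436, 366 and 387 CPM (-1.09, SE 0.23, adjusted p = 0.000175), and Pdia6, a disulfide isomerase, from 554, 551 and 521 CPM to 229, 305 and 68.3 CPM (-1.52, SE 0.30, adjusted p = 4.16e-05). The disulfide isomerase Pdia3 (-1.04, adjusted p = 0.000238), the small ER protein Manf (-1.46, adjusted p = 0.00571) and Sel1l (-1.94, adjusted p = 0.026), an adaptor of ER-associated degradation, were also lowered, and the promoter windows of Pdia3 and Sel1l held no copy of the element. Without replicate 3 only Hspa5 and Hsp90b1 passed, with adjusted p values of 0.108 for Calr, 0.1 for Pdia6, 0.0918 for Pdia3, 0.107 for Manf and 0.131 for Sel1l.

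The 3 other tested genes with the element did not pass. Dnajc3, an ER co-chaperone, had a log2 fold change of -1.11 (adjusted p = 0.0528), Canx, the membrane-bound lectin calnexin, of -0.25 (adjusted p = 0.502) and Hnrnpa3, an RNA-binding protein of the nucleus, of 0.26 (adjusted p = 0.723).

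Hspd1, the mitochondrial chaperonin HSP60, rose from 185, 148 and 182 CPM to 986, 611 and 524 CPM (1.88, SE 0.29, adjusted p = 4.75e-08), and the lowest day 1 value was well above the highest of day 0. Its co-chaperonin Hspe1, whose gene lies head to head with it, passed at 0.0189 (0.94), but not without replicate 2 (0.18) or 3 (0.254). Subunits of the cytosolic chaperonin that folds actin and tubulin also rose, Cct4 by 1.38 (adjusted p = 0.00349) and Cct8 by 0.86 (adjusted p = 0.00424). Cct4 did not pass without replicate 3 (0.0536), nor Cct8 without replicate 1 (0.09) or 2 (0.0669). Of the 25 tested cytosolic and mitochondrial chaperones (28 listed), 4 were raised and 3 lowered, with a median of 0.38. The lowered ones were the stress-inducible Hspa1b (-2.03), Hspb1 (-1.15) and Cryab (-1.80), the last from 698, 191 and 703 CPM to 115, 171 and 148 CPM, and none of the 3 passed without replicate 3 (adjusted p = 0.737, 0.484 and 0.115).

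**Figure D3:**
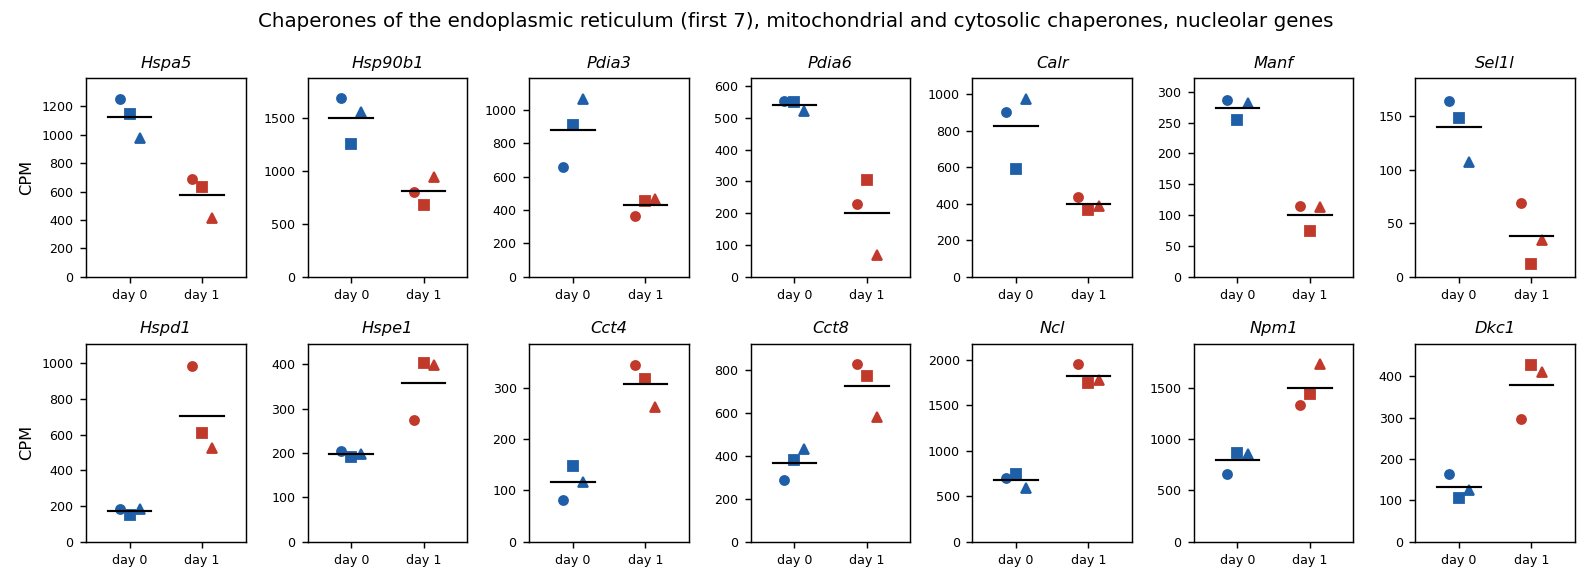
Level in CPM on day 0 (blue) and day 1 (red) of the 7 lowered endoplasmic reticulum chaperones and of 7 raised chaperone and nucleolar genes, with a circle, a square and a triangle for replicates 1, 2 and 3 and a bar at the mean. The 7 genes of the upper row are lower on day 1 in each replicate, and the 7 of the lower row are higher in each.

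Of 22 tested nucleolar genes, which serve the making of ribosomes (43 listed), 5 were raised and none lowered, 20 log2 fold changes were above 0, and the median was 0.91. Ncl, the abundant nucleolar protein nucleolin, went from 698, 741 and 596 CPM to 1948, 1747 and 1776 CPM (1.45, SE 0.18, adjusted p = 1.57e-11), with tight replicates on both days. Npm1, or nucleophosmin, went from 657, 868 and 852 CPM to 1329.5, 1442 and 1731 CPM (0.93, SE 0.18, adjusted p = 4.11e-05), and Dkc1, the pseudouridine synthase dyskerin, from 164, 106 and 124 CPM to 298, 428 and 409.9 CPM (1.60, SE 0.33, adjusted p = 0.000121). These 3 passed without any 1 replicate, while Rrs1 (2.15, adjusted p = 0.023) did not pass without replicate 2 (0.254) or 3 (0.325), by DESeq2 (0.0586) or by limma (0.131), and the helicase Ddx21 (1.46, adjusted p = 0.015) not without replicate 1 (0.286) or 2 (0.0544). Npm1 has 7 near copies, and Dkc1 shares stretches with 16 other genes. All 14 tested genes of nucleotide and polyamine synthesis (25 listed) had log2 fold changes above 0, and 1 of them passed, Prps1, which makes the ribose phosphate precursor of nucleotides (1.72, adjusted p = 0.00406, and 0.0663 without replicate 2).

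Of 71 tested cytoplasmic ribosomal proteins 2 were raised, with a median of 0.19, and of 43 translation factors 2 were raised and 1 lowered, with a median of 0.29. Of 37 splicing factors 2 were raised (median 0.22), and of 25 mitochondrial ribosomal proteins 1 was lowered. The raised share was 2.82% of the ribosomal proteins, 4.65% of the translation factors and 5.41% of the splicing factors, beside 3.09% over all genes.

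Of 30 tested genes listed under mitosis and G2/M (42 listed) 5 were raised and none lowered, with 27 above 0 and a median of 0.39. Of these 5, Ccnd1 and Ccnd2 are D-type cyclins, which act in G1, and Birc5, Ccna2 and Ube2c act in G2 and mitosis. Birc5, or survivin, of the chromosomal passenger complex, went from 61.6, 106 and 91 CPM to 321, 305 and 387 CPM (1.89, SE 0.40, adjusted p = 0.000149). Ccnd1, or cyclin D1, which starts the cycle and is a target of beta-catenin, went from 103, 148 and 82.8 CPM to 413, 391 and 433 CPM (2.00, SE 0.34, adjusted p = 1.18e-06). Both were higher in every replicate. Ccnd2 (0.69, adjusted p = 0.00215) did not pass without replicate 1 (0.0528), cyclin A2, Ccna2 (1.22, adjusted p = 0.0144), not without replicate 1 (0.0787) or 2 (0.195), and Ube2c (1.32, adjusted p = 0.049) not without any 1 replicate (0.0741 to 0.385). Of 14 tested S phase genes (42 listed) 2 were raised, the helicase subunit Mcm2 (1.88, adjusted p = 0.0128) and the dUTPase Dut (0.91, adjusted p = 0.0302), with 13 above 0 and a median of 0.94. Neither passed without replicate 2 (0.101 and 0.456) or 3 (0.208 and 0.0536). Ube2c shares stretches with 15 other annotated genes and Mcm2 with 8. Cdkn1a, the cell cycle inhibitor p21, had a log2 fold change of -0.06 (adjusted p = 0.916), and none of 11 tested p53 targets and cell cycle inhibitors passed.

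Chiron inhibits GSK3 and so stabilises beta-catenin, but only 2 of its 20 listed targets had counts enough to be tested. Ccnd1 rose, while Wisp1, a secreted matrix-associated protein, went from 616, 826 and 629 CPM to 183, 61.1 and 102 CPM (-2.67, SE 0.44, adjusted p = 7.41e-07). Of 4 tested targets of LIF and STAT3, 1 was lowered, the immediate early gene Ier3 (-1.48, adjusted p = 0.00089, and 0.298 without replicate 3), and none was raised. Of 6 tested immediate early genes Ier3 and Klf6 (-1.33, adjusted p = 0.028, and 0.594 without replicate 2) were lowered. Of the 2 tested feedback genes of the ERK pathway 1 was raised, again Ccnd1.

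Of 21 tested genes that protect against oxidants (25 listed) 4 were raised and 1 lowered, with a median of 0.48. Gclm, the modifier subunit of the enzyme that limits glutathione synthesis, went from 267, 275 and 289.7 CPM to 596, 904 and 695 CPM (1.36, SE 0.25, adjusted p = 1.46e-05), though it shares sequence with 14 other annotated genes. Prdx6, a peroxiredoxin, was at 476 ± 60.7 CPM on day 0 and 977 ± 145 CPM on day 1 (1.03, adjusted p = 0.00153). The metallothionein Mt2 (1.74, adjusted p = 0.00621) did not pass without replicate 3 (0.201), and Hmox1, the haem oxygenase (1.00, adjusted p = 0.0221), not without replicate 1 (0.0974) or 2 (0.222). Without the replicate block only Gclm of these 4 passed, with an adjusted p of 0.0741 for Prdx6, 0.0654 for Mt2 and 0.0747 for Hmox1. By limma on the deposited log2 values it was 0.061 for Prdx6 and 0.0817 for Hmox1. Akr1b3, or aldose reductase, which turns glucose into sorbitol, went the other way, from 2525, 1016 and 2491 CPM to 321, 183 and 364 CPM (-2.81, SE 0.24, adjusted p = 3.99e-22), with 4 near copies elsewhere. Slc7a11, already named, was the only one raised of 14 tested genes of the ATF4 response (median 0.42).

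The core of the antioxidant response element, TGACNNNGC on both strands, was in 14% of all promoters, 19.4% of those of tested genes, 13 of 58 raised genes (22.4%), Gclm and Mt2 among them, and 27 of 143 lowered genes (18.9%). The E-box CACGTG, to which Myc binds, was in 13.5% of tested, 8 of 58 raised (13.8%) and 13 of 143 lowered genes (9.09%). The CArG box, the site of serum response factor, was in 2.39% of tested, no raised and 5 of 143 lowered genes (3.5%), 2 of them the contractile genes Myl6 and Myl9.

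Sterol and fatty acid genes were lowered in 4 of 13 tested (32 listed), with a median of -0.995 and none raised. Scd2, a fatty acid desaturase, was at 1276 ± 153 CPM on day 0 and 541 ± 171 CPM on day 1 (-1.24, SE 0.21, adjusted p = 2.6e-06), and Msmo1, a sterol oxidase, at 637 ± 71.5 and 284 ± 127 CPM (-1.33, SE 0.27, adjusted p = 8.82e-05). Scd2 passed without any 1 replicate and Msmo1 not without replicate 3 (0.118), nor did Hsd17b7 (0.508). By limma on the deposited log2 values 1 of the list passed, with an adjusted p of 0.0875 for Scd2, 0.106 for Msmo1 and 0.109 for Hsd17b7. Lysosomal genes were lowered in 4 of 14 tested (26 listed), all 14 below 0, with a median of -0.58. Cd63, a tetraspanin of late endosomes, was at 1603 ± 133 and 728 ± 56.7 CPM (-1.14, SE 0.19, adjusted p = 3.95e-07). The protease Ctsd and Npc2 and Laptm4a were lowered too, but none of these 3 passed without replicate 3 (0.152, 0.0732 and 0.326), and by limma 1 lysosomal gene passed.

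Imprinted growth genes were lowered in 3 of 8 tested (15 listed), with a median of -0.70. The maternally expressed noncoding RNA Meg3 was at 324 ± 68.2 and 74 ± 17.4 CPM (-2.13, SE 0.51, adjusted p = 0.00122), and the paternally expressed Peg3 at 658 ± 98.7 and 233 ± 76.6 CPM (-1.60, SE 0.31, adjusted p = 2.44e-05). Ndn (-1.08, adjusted p = 0.0355), or necdin, did not pass without any 1 replicate (0.109 to 0.202). By limma on the deposited log2 values 0 of the list passed, with an adjusted p of 0.191 for Meg3, 0.243 for Peg3 and 0.588 for Ndn. Interferon-stimulated genes were lowered in 2 of 4 tested, the membrane proteins Ifitm2 (-1.53, adjusted p = 0.00133) and Ifitm3 (-0.83, adjusted p = 0.0086), neither without replicate 3 (0.127 and 0.532). Of 11 tested nuclear noncoding RNAs Meg3 was lowered and Epb41l4aos raised.

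Transcripts encoded by the mitochondrial genome were lowered in 6 of 17 tested (37 listed), with 16 below 0 and a median of -0.41. The ribosomal RNA mt-Rnr1 was at 36106, 30004 and 44411 CPM on day 0 and 18843, 17359 and 24675 CPM on day 1 (-0.86, SE 0.15, adjusted p = 4.83e-06), and the cytochrome oxidase subunit mt-Co1 at 23236, 27039.5 and 19416 CPM and then 17101, 16003 and 12491 CPM (-0.61, SE 0.13, adjusted p = 0.000132). The days did not overlap for either. Without replicate 3 the count was 3 of the 6, without the replicate block mt-Co1 did not pass (adjusted p = 0.154), and by limma on the deposited log2 values 0 passed. None of 49 tested nuclear genes of the respiratory chain passed, with a median of 0.05. The mitochondrial share of all counts, given above as lower on day 1, is the same measurement, and it was 16.4 to 17.8% on day 2 and 19.7 to 22.6% on day 3. This share is also used as a sign of RNA quality, and its part in the other results was not tested.

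No gene passed among 10 tested of glycolysis, 4 of the response to low oxygen, 23 proteasome subunits and 5 of DNA repair. At an unadjusted p under 0.05, 661 of all 3013 genes passed.

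The 4 reprogramming factors are read poorly here. CEL-Seq2 counts the 3′ end, and the lentiviral transcript does not end as the endogenous genes do, so that these counts do not check induction. Pou5f1 (Oct4) had 1 count, in replicate 2 of day 1, Sox2 none, Klf4 5 counts on day 0 and 3 on day 1, and Myc 3 counts, all in replicate 2 of day 1. Among chromatin genes on which the study centres, Wdr5, a core subunit of histone H3K4 methyltransferases, had 1 count in each day 0 library and 1, 3 and 9 on day 1, a ratio of 4.40 (counting interval 1.21 to 24.1). Replicate 3 gave 9 of the 13 day 1 counts, and without it 4 counts on day 1 stood against 2 on day 0. Brca1, a DNA repair ubiquitin ligase, had 0, 5 and 3 counts and then 0, 1 and 1, a ratio of 3.94 lower (interval 0.785 to 38.0), and its partner Bard1 had 0, 0 and 3 and then none.

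Epithelial and pluripotency genes gave no evidence of a rise at this depth. None of 24 epithelial genes was tested, 13 had no count on either day, and their summed counts were 8, 9 and 11 on day 0 and 1, 10 and 6 on day 1. Cdh1 (E-cadherin) and Epcam were at 0 in all 6 libraries. None of 27 pluripotency genes was tested either, 17 had no count, Nanog among them, and their summed counts were 3, 3 and 16 and then 3, 7 and 8. A gene with no count in a day 1 library could still have stood there at up to 34.2 to 68.8 CPM, depending on the library.

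Markers of fibroblasts were high on both days, with 6445 to 8173 CPM summed over the list on day 0 and 3645 to 4557 CPM on day 1. Of 9 tested (12 listed) 4 were lowered, Col1a1, Col1a2, Col3a1 and Postn, which are matrix genes counted above. Of the 9 endothelial markers 6 were at 0, and the sums were 0 to 21 CPM and 0 to 11 CPM. Macrophage and leukocyte markers summed to 132 to 246 CPM on day 0 and 61 to 69 CPM on day 1. On day 0 nearly all of this was Lyz2, a lysozyme (-2.60, adjusted p = 0.0164, but 0.0609 to 0.201 without 1 replicate), and 6 of the 12, C1qa, C1qb and Tyrobp among them, were at 0. The part of such cells in the lowered chemokines was not tested.

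Neural and glial markers summed to 25 to 85 CPM on day 0 and 183 to 228 CPM on day 1, through Nefl, Stmn2 (3.02, adjusted p = 0.0538), Map2 and Nefm, while Gfap, Elavl3 and Rbfox3 were at 0. The part of neural cells in the rise of Nefl was not tested. Adipocyte markers summed to 58 to 85 CPM and then 147 to 182 CPM, mostly Lpl, or lipoprotein lipase (1.39, adjusted p = 0.053), with Adipoq, Pparg and Plin1 at 0. Cartilage and bone markers summed to 91 to 123 CPM and then 11 to 73 CPM, with Acan, Col2a1 and Bglap at 0. Skeletal muscle markers gave 0 to 21 and 0 to 24 CPM with Myod1 and Myog at 0, pluripotent cell markers 0 to 21 and 0 to 12 CPM, keratinocyte markers 1 count in all, and erythroid and germ cell markers none.

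The first step was set beside the later ones in the same fit. From day 1 to day 2, 145 genes passed (4.81%), and from day 2 to day 3, 85 (2.82%). From day 3 to day 4, 360 passed (11.9%), from day 4 to day 5, 144 (4.78%), and from day 5 to day 6, 237 (7.87%). The change from day 0 to day 1 was tested against that from day 1 to day 2 in the same fit, and 158 genes differed (5.24%). They held 49 of the 93 raised and 74 of the 205 lowered genes. Without replicate 3 the count was 52. Since both steps use the day 1 libraries, a high or low day 1 value enters both.

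On the second day 3 of the 93 raised genes rose again and 16 fell, and 4 of the 205 lowered genes fell again and 28 rose. Akr1b3 turned, with a log2 fold change of -2.81 into day 1 and of 1.70 into day 2 (adjusted p = 1.37e-07). So did mt-Rnr1, with -0.86 and then 0.86 (adjusted p = 2.12e-05). Scd2 recovered in part, with -1.24 and then 0.75 (adjusted p = 0.0207).

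Flrt2 and Acta2 were low on all later days and Spp1 was not. Mean levels of Flrt2 were 1546 CPM on day 0, 78 on day 1, 60.9 on day 2 and 60.3 on day 6. Acta2 continued down, with 4046, 2102, 895 and 410 CPM on days 0 to 3 and 220 CPM on day 6. Spp1 went from 1436 to 128 CPM and stood at 1050 CPM on day 3 and 676 CPM on day 6. Among raised genes Inhbb went from 24.9 to 194 CPM and stood at 484 on day 2 and 706 on day 3, whereas Birc5 went from 86.2 to 338 CPM and was back at 59.5 CPM on day 3. These means carry no test of their own.

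The step from day 3 to day 4 shares no library with that from day 0 to day 1, and it was set beside it after the values had been seen. In it 160 genes were raised (5.31%) and 200 lowered (6.64%). Of the 205 genes lowered into day 1, 61 were lowered again into day 4, which is 29.8% of the first list and 30.5% of the second, and none was raised. Of the 93 raised into day 1, 23 were raised again (24.7% of the first list and 14.4% of the second) and 11 were lowered. Without replicate 3 the counts shared by both steps were 16 lowered and 8 raised, and by limma on the deposited log2 values 9 lowered and 22 raised. Into day 4 the lowered genes had a median log2 fold change of -0.54 and the raised genes of 0.47, against 0.01 over all genes. Across the 3013 genes, which are not independent replicates, the 2 steps correlated with Pearson's r of 0.38 and Spearman's rho of 0.40.

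Genes that moved the same way in both steps came from several of the groups above. Ccl2 had a log2 fold change of -4.01 into day 4, Akr1b3 of -3.63, Igfbp5 of -3.08, Spp1 of -1.72, Calr of -0.94 and Hsp90b1 of -0.82. On the raised side Ccna2 had 2.22, Birc5 2.15, Dkc1 1.47, Npm1 1.31 and Ncl 1.13. Into day 3 the pattern was turned, with 4 of the 205 lowered genes lowered and 18 raised, and r was -0.29. Into day 5, 12 were lowered and 5 raised, and into day 6, 9 were lowered and 8 raised. The steps into day 3 and into day 4 both use the day 3 libraries. A high or low day 3 value thus enters both, with opposite sign.

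**Figure D4:**
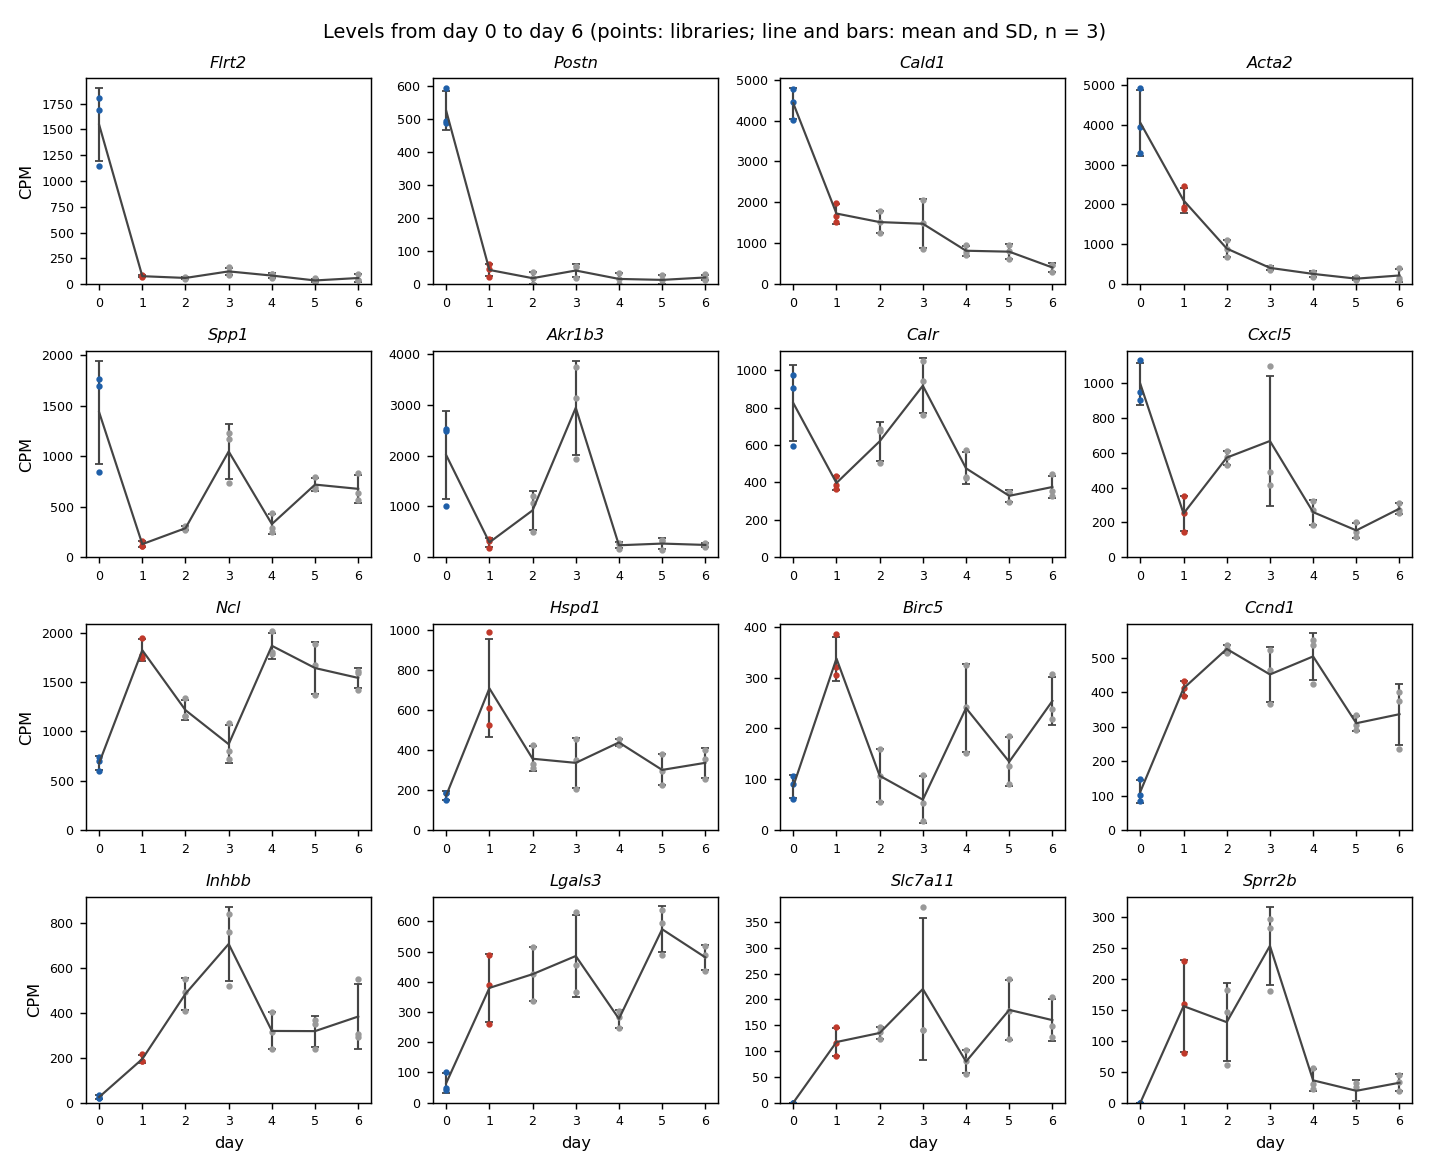
Level in CPM from day 0 to day 6 of 8 lowered genes (upper rows) and 8 raised genes (lower rows), with a point per library, a line through the means and bars of 1 SD (n = 3 libraries a day), each panel with its own axis from 0. Flrt2 and Acta2 stay below their day 0 level, while Spp1, Akr1b3 and Calr rise again to day 3 and Ncl and Birc5 are lower on day 3 than on day 1.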

How the data were processed

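RNA of 6 untransfected libraries, 3 of day 0 and 3 of day 1, was compared. The authors mapped CEL-Seq2 reads to mm10 with Bowtie2 and counted UMIs per gene of GENCODE vM13 with the CEL-Seq2 pipeline. The count table was deposited without normalization. A second deposited table holds log2 CPM, for which the authors divided by size factors and regressed out the batch, and it served only as an alternative. Conditions come from the column names, since the labels give only the replicate, and 0 columns of values lacked a sample.

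All 127 libraries kept by the authors were fitted together with edgeR 4.0.16 in R 4.3.3 (quasi-likelihood test, TMM scaling, filterByExpr by condition, a term per condition and the replicate as a block), with Benjamini-Hochberg adjustment over the 3013 genes tested, 83 residual degrees of freedom and a threshold of 0.05. Tested genes held 80.2 to 81.5% of the counts, and CPM are scaled to their TMM-scaled total. The labels say that a replicate number marks a shared sequenced pool. Deviations of same-numbered libraries from their condition means correlated at 0.063, 0.093 and 0.185 (replicates 1, 2 and 3), and those of different numbers at -0.113 to 0.0037. Deviations from a mean sum to 0 within a condition, so that these values depend on each other. The pairing was not tested. The 2 Mock columns of a replicate share a name, and the single log2 column of replicate 3 was assigned to a library by correlation (r 0.939 against -0.0103).

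Named were the 12 genes raised most and the 12 lowered most, if called, at a mean of at least 50 CPM on 1 day and of like sign in all replicates, the members of 39 gene lists and 11 marker lists, and the 4 factors with Wdr5, Brca1 and Bard1. The comparison, lists and rule were chosen with earlier results of these data known. Folds against 0 counts take 3 counts over the group as the floor, and ratios of small counts carry exact 95% Poisson intervals, which cover counting error only. Positions and overlaps are from GENCODE vM21 on GRCm38, promoters from RefSeq. On simulated data the test recovered 36% of 2-fold and 76% of 4-fold changes, with 4.27% of its calls on unchanged genes. Every gene was simulated with the same spread (dispersion 0.0158) and without a replicate effect, so that these shares may differ in the real data. Alternatives, run with DESeq2 1.42.0 and limma 3.58.1 among others, are given in the closing section.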

Additional observations from a re-analysis of the deposited data

Results flagged for a closer look

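For 14 of the 24 genes of largest change, the step into day 1 differed from the step into day 2 in a test of the difference itself. These genes were chosen for their change into day 1, and a gene at few counts on day 1, such as Prss35 or Ccl2, could hardly fall again, so that the difference is a description set in large part by the choice. Among the lowered genes the difference of the log2 fold changes was -6.39 for Prss35, -3.83 for Flrt2, -4.50 for Igfbp5, -4.77 for Spp1 and -4.83 for Ccl2. Spp1 had the smallest adjusted p (5.39e-10), and for Flrt2 it was 0.000325. Among the raised genes the difference was 6.50 for Sprr2b, 5.85 for Slc7a11, 4.99 for Gm13212, 4.13 for Nudt19, 4.84 for Rbm8a, 4.54 for Gm6063, 2.35 for Lgals3, 3.18 for Dusp14 and 3.25 for Gm5812. The day 1 libraries enter both steps, so that chance in them moves both. The fits of Prss35, Sprr2b, Slc7a11, Gm13212, Nudt19, Rbm8a and Gm6063, which had libraries with no count, depend on the prior count. Groups of 3 libraries were too small to test for a library that stands apart.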

How the results depend on the processing

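No called gene named in the report turned its direction under the alternatives run: of the values of single genes, 1187 kept their side of the threshold and 272 no longer passed. Leaving out a replicate gave 117 to 215 genes called (42 to 69 raised, 75 to 146 lowered), 52 to 93 that differed between the first steps, 54 to 91 listed genes, 2 to 6 contractile, 4 to 7 collagen, 2 to 4 G2/M and 2 to 6 ER chaperone genes, and 16 to 34 lowered and 8 to 12 raised into both day 1 and day 4. Mostly the loss of replicate 3 gave the lowest value. Without the replicate block, counts were 196 called (60 raised, 136 lowered), 72 for the difference of steps, and 37 lowered and 15 raised in both day 1 and day 4, and the antioxidant genes raised went from 4 to 1. Without the filter on low counts 15081 genes were tested and counts were 174 (57 raised, 117 lowered), 83 for the difference, 27 lowered in both, 5 contractile and 3 nucleolar genes. With limma on the deposited log2 values, in which 10568 genes were tested, 239 passed, of which 154 were raised and 85 lowered and 113 were among the main calls. Limma gave 81 for the difference, 67 listed genes, 9 lowered in both, 0 contractile (8 by edgeR), 1 collagen, 1 ER chaperone, 1 sterol, 1 lysosomal, 0 imprinted and 8 nucleolar genes, and at an unadjusted p under 0.05 it passed 1496 genes. The filter on the 6 libraries left 3 nucleolar genes and 35 raised in both, the time course fitted alone 36 raised in both, and DESeq2 13. The cause of these shifts was not tested. A difference of steps was not fitted for the 6 libraries alone, which hold no day 2. At this depth and number of replicates 36% of simulated 2-fold changes were recovered. The simulation gave every gene the same spread and held no replicate effect. The comparison of day 1 with day 4, its alternatives and the genes outside the lists were chosen after seeing the data.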

Other observations

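Of the 298 genes called, 62 raised and 127 lowered genes were in none of the lists, and those named here were chosen after their values were seen. Hif1a, the subunit through which cells sense low oxygen, stood at 1252, 762 and 1167 CPM on day 0 and at 389.7, 281 and 205 CPM on day 1 (log2 fold change -1.95, SE 0.25, adjusted p = 9.46e-11 by edgeR). It was lower in each replicate and passed under every alternative run, while none of the 4 tested genes that respond to low oxygen passed. Fstl1, a secreted glycoprotein (-1.51, adjusted p = 2.19e-08), Dap (-1.95, adjusted p = 9.51e-09) and the sodium pump subunit Atp1b1 (-2.79, adjusted p = 9.16e-05, but 0.0513 by DESeq2) were lowered, as was the ligand Wnt5a (-2.16, adjusted p = 9.78e-05, but 0.0918 without replicate 3 and 0.061 by limma on the deposited log2 values). The coat protein Copb1 went from 308, 254 and 257 CPM to 68.8, 24.4 and 79.7 CPM (-2.21, SE 0.45, adjusted p = 8.98e-05), and the ER protein Rcn3 (-2.84, adjusted p = 0.000132) and the cargo receptor Surf4 (-1.28, adjusted p = 0.000132, but 0.193 by limma) were lowered. The ER membrane proteins Rrbp1 (-1.54) and Ckap4 (-1.04) were called lowered, but not without replicate 3 (adjusted p = 0.169 and 0.0741) or by limma (0.107 and 0.353).

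Among the raised genes Serbp1, an RNA-binding protein that associates with ribosomes, stood at 534, 889 and 712 CPM on day 0 and at 1834, 1454 and 1811 CPM on day 1 (1.25, SE 0.18, adjusted p = 9.51e-09), and passed under every alternative run. Enah, an actin regulator at the cell edge (1.40, adjusted p = 0.000238), also did so, and Cyp1b1, a cytochrome P450 (1.09, adjusted p = 0.00142), passed under all but limma on the deposited log2 values (0.0629). The chromatin protein Hmga1 rose from 61.6, 63.5 and 49.7 CPM to 252, 244 and 171 CPM (1.88, SE 0.45, adjusted p = 0.00114), while its relative Hmga2 fell from 3243, 3218 and 2119 CPM to 1513, 2260.0 and 1287 CPM (-0.74, SE 0.18, adjusted p = 0.00121). The days overlapped for Hmga2, which did not pass without replicate 1 (0.064), without the replicate block (0.171) or by limma (0.328).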
